A study of Arabidopsis thaliana with 12 samples.

Results

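The H3K4me3 peaks of an atx3/4/5 mutant of Arabidopsis thaliana were set directly against those of an sdg2 mutant. The comparison comprised every peak of both lists, 13622 in atx3/4/5 and 15569 in sdg2, which together are 29191 of the 80922 peaks in the 5 deposited lists. A peak was shared when any peak of the other list overlapped it by 1 bp or more. A gene was marked when a peak overlapped its locus, as listed in the authors' deposited RNA table, by 1 bp or more. No measured value other than the position of the peaks entered these classes.

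All plants were of the Columbia (Col-0) accession, 4 weeks old, and kept at 22 °C during 16 h of light and at 20 °C during 8 h of darkness, and rosette leaves were taken. The genotypes were labelled wildtype, atx3/4/5 mutant and sdg2 mutant, with no allele named. Chromatin immunoprecipitation sequencing (ChIP-seq) was done once per genotype and antibody, so H3K4me3 rests on 1 library in each mutant and 1 in wild type, and H3K4me2 on 1 library each in wild type and atx3/4/5. RNA sequencing covered 2 libraries of wild type and 2 of atx3/4/5, which the authors combined into 1 value per genotype, and no RNA of sdg2 was analysed here. With 1 library per genotype there is no replicate check on any peak, no p-value can be given, and the 95% exact (Clopper-Pearson) intervals below cover counting error only. The read depth of the ChIP libraries is unknown, and a peak missing from a list means only that nothing there passed the authors' peak caller. In leaf tissue, the mark in fewer cells and less of the mark per cell cannot be told apart.

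Trimethylation of lysine 4 of histone H3 (H3K4me3) sits mainly over the beginnings of transcribed genes, whereas H3K4me2 extends further into gene bodies and over weakly transcribed genes. In plants the mark is written by SET-domain enzymes. ATX3, ATX4 and ATX5 are closely related members of the trithorax-like class, and SDG2 (also ATXR3) belongs to a separate class that is known as a major writer of H3K4me3 in the plant body. In wild-type leaves the authors' deposited table listed all 4 enzymes as expressed, with FPKM values (fragments scaled by transcript length and library size) of 4.17 for ATX3, 1.05 for ATX4, 3.93 for ATX5 and 0.884 for SDG2. In atx3/4/5 the authors' deposited table gave 4.38 for ATX3, 2.88 for ATX4 and 3.76 for ATX5 and none of the 3 was called, so the label cannot be checked on RNA over these loci. SDG2 itself was called higher there, at 3.55 FPKM with a deposited q of 0.0018. The 4 loci carried an H3K4me3 peak in both mutants, and no RNA was there to check the sdg2 label.

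The tissue label was checked with marker genes. All 31 photosynthesis genes of a leaf marker list carried an H3K4me3 peak in atx3/4/5, and 19 did in sdg2. Of 15 root genes 1 was marked in each mutant, of 15 pollen genes 3 in atx3/4/5 and 4 in sdg2, and of 17 seed genes 1 in atx3/4/5 and 3 in sdg2.

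Most peaks were common to the mutants. In atx3/4/5, 1464 of 13622 peaks (10.7%, interval 10.2 to 11.3%) had no sdg2 peak, and in sdg2, 2831 of 15569 peaks (18.2%, interval 17.6 to 18.8%) had no atx3/4/5 peak. Which mutant had the larger share depended on the length of the lists. When each list was held to its 13622 highest-scoring peaks, the share was 16.5% in atx3/4/5 and 13.6% in sdg2. The peaks of atx3/4/5 covered 15.6 Mb and those of sdg2 11.2 Mb, although sdg2 had more of them. The 9.26 Mb covered in both were 59.5% of the covered bases of atx3/4/5 and 83.1% of those of sdg2.

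Peaks of 1 mutant only were mostly peaks with low scores in their own list. The score is the peak caller's own value, taken as 10 times the negative log10 of its p-value. It was compared within a list, except where the same score cut was set for both lists. Such a cut may not be equally strict in both libraries. In atx3/4/5 the median score was 292 for peaks without a counterpart and 862 for shared peaks, and in sdg2 the medians were 141 and 488. From the lowest to the highest quintile of scores, the share without a counterpart was 27.5, 12.7, 6.57, 3.93 and 3.05% in atx3/4/5 and 45.2, 24.7, 13.0, 5.88 and 2.22% in sdg2. The highest quintile still held 83 atx3/4/5 peaks and 69 sdg2 peaks with no counterpart. Over the 5 chromosomes the share ranged from 10.2 to 11.2% in atx3/4/5 and from 17.6 to 18.4% in sdg2, so no chromosome stood out.

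**Figure D1:**
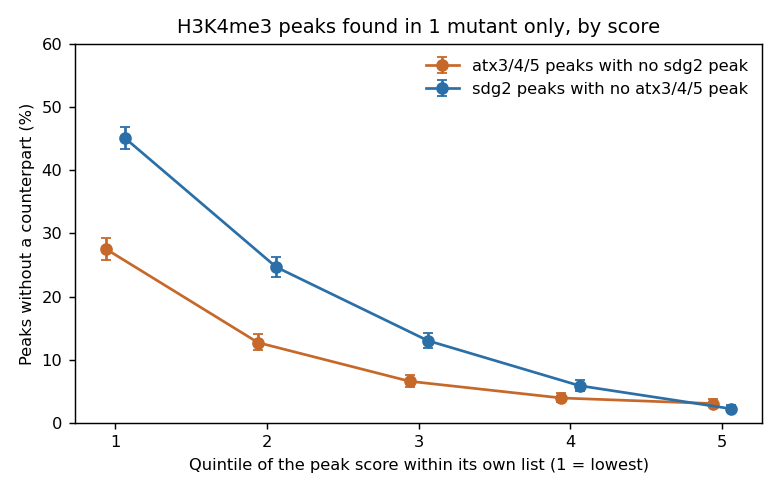
Share of H3K4me3 peaks without an overlapping peak in the other mutant (y axis, %), by quintile of the peak score within each list (x axis), with exact 95% intervals for counting error as bars. The share falls from 27.5 to 3.05% in atx3/4/5 and from 45.2 to 2.22% in sdg2.

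The peaks of 1 mutant only differed between the mutants in the other marks found at the same place. Of the atx3/4/5 peaks with no sdg2 peak, 73.9% (interval 71.6 to 76.1%) overlapped a wild-type H3K4me3 peak, against 43.3% (41.5 to 45.2%) of the sdg2 peaks with no atx3/4/5 peak. Shared peaks overlapped one in 99.0 to 99.1% of cases. For wild-type H3K4me2 the order was the other way round, with 59.5% of the peaks of atx3/4/5 alone and 82.1% of the peaks of sdg2 alone. Of shared peaks, 82.5% of those of atx3/4/5 and 76.5% of those of sdg2 overlapped one. The value of sdg2 alone was thus near that of shared peaks, and that of atx3/4/5 alone was lower. H3K4me2 peaks of atx3/4/5 lay at 55.0% of the peaks of atx3/4/5 alone and 37.6% of the peaks of sdg2 alone. For shared peaks these values were 73.2 and 67.0%. Nearly all unshared peaks touched a locus, 97.8% in atx3/4/5 and 94.0% in sdg2, and 17.6% of them in each list touched a locus that carried peaks in both mutants. A peak of the other mutant lay within 500 bp of 8.54% of the unshared peaks of atx3/4/5 and of 11.0% of those of sdg2.

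The 10 highest-scoring atx3/4/5 peaks with no sdg2 peak all overlapped a wild-type peak. The first lay over AT2G03750 (chromosome 2, 1147705 to 1149189 on TAIR10), with a width of 1485 bp and a score of 3222 in atx3/4/5 and a width of 1524 bp in wild type. Receptor genes made up a part of the set. RLP18, a receptor-like protein gene, had a peak of 2428 bp in atx3/4/5 and of 1591 bp in wild type. Its neighbour in name RLP19 had 3245 bp in atx3/4/5 and 3170 bp in wild type. WAK1, a wall-associated receptor kinase, had 2568 bp in atx3/4/5 and 2239 bp in wild type. All 3 loci lacked an sdg2 peak over their whole length. RLP18 went from 0.777 to 4.15 FPKM and WAK1 from 22.4 to 74.5 FPKM in atx3/4/5 in the authors' deposited table, both called higher, while RLP19 was not called. The set also held DFL2, of the GH3 family of amino acid conjugating enzymes, CP12-2, which encodes a small regulator of the Calvin cycle, and the non-coding RNA gene GUT15, whose peak reached the neighbouring SDH1-2. AT1G79245 and AT3G28540 were 2 further loci, and AT3G62422 lay beside CP12-2 under the same peak. At CP12-2 the peak was 2289 bp wide in atx3/4/5 and 2285 bp in wild type. LHB1B2, a light-harvesting chlorophyll-binding protein gene, shares its locus with RWA3, which carries another peak, so this pair counts as marked in both mutants. Many peaks shared the score of 3100, and the order among them was set by width.

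The 10 highest-scoring sdg2 peaks with no atx3/4/5 peak also all overlapped a wild-type peak. The first lay within AT5G17980 (chromosome 5, 5954130 to 5955857), with 1728 bp and a score of 2282 in sdg2 and 1646 bp in wild type. At SLD2, a sphingolipid long-chain base desaturase gene, the peak measured 1726 bp in sdg2 and 1866 bp in wild type. OPS (OCTOPUS), a membrane protein gene of phloem differentiation, had 2206 bp in sdg2 and 2024 bp in wild type. PERK14, a proline-rich extensin-like receptor kinase gene, had 1118 bp in sdg2 and 1489 bp in wild type. At these 4 places the sdg2 peak kept most of the wild-type width or exceeded it. At the pair AT1G15825 and AT1G15830 the sdg2 peak had 2045 bp and the wild-type peak 4580 bp. The wild-type peak is wider than the pair and may reach the neighbouring locus of the light-harvesting gene LHCB6. That locus had 2 wild-type peaks of 5963 bp in sum and 2 sdg2 peaks of 1935 bp. The 2 widths at the pair may therefore not cover the same genes. AT1G15825 and AT1G15830 were the only genes under the 10 peaks that were called in RNA. By the authors' deposited table, AT1G15825 fell from 23.0 to 3.37 FPKM and AT1G15830 from 24.3 to 2.68 FPKM in atx3/4/5. The other peaks lay over AT1G75640, SETH6, AT1G02650, the pair AT1G78910 and AT1G78915, and the pair AT5G10830 and EMP1. The last 2 pairs share a locus that was marked in both mutants.

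Where a peak was shared, it was narrower in sdg2. In 11567 pairs each peak overlapped exactly 1 peak of the other list, and the median width was 1058 bp in atx3/4/5 (quartiles 905 and 1259 bp) and 708 bp in sdg2 (580 and 862 bp). The median log2 width ratio, sdg2 over atx3/4/5, was -0.55, with quartiles of -0.84 and -0.30, a ratio of 0.682. The sdg2 peak was the narrower one in 10856 pairs (93.9%), the wider one in 708 and equal in 3. It was narrower by over 1.5-fold in 5379 pairs (46.5%) and wider by over 1.5-fold in 49 (0.424%). In 9699 pairs (83.9%) the sdg2 peak lay entirely within the atx3/4/5 peak, and in 263 the reverse held.

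Set beside the wild-type list, the sdg2 widths were the ones that differed. The widths of each genotype rest on 1 library, so genotype and a difference between libraries, such as read depth, cannot be told apart. Among 11234 places where wild type, atx3/4/5 and sdg2 had 1 peak each, the median widths were 1092, 1060 and 711 bp. The median log2 width ratio to wild type was -0.049 in atx3/4/5 and -0.60 in sdg2. A peak narrower than wild type by over 1.5-fold was found at 2.07% of these places in atx3/4/5 and at 50.9% in sdg2, and sdg2 had the narrowest of the 3 peaks at 93.2%.

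**Figure D2:**
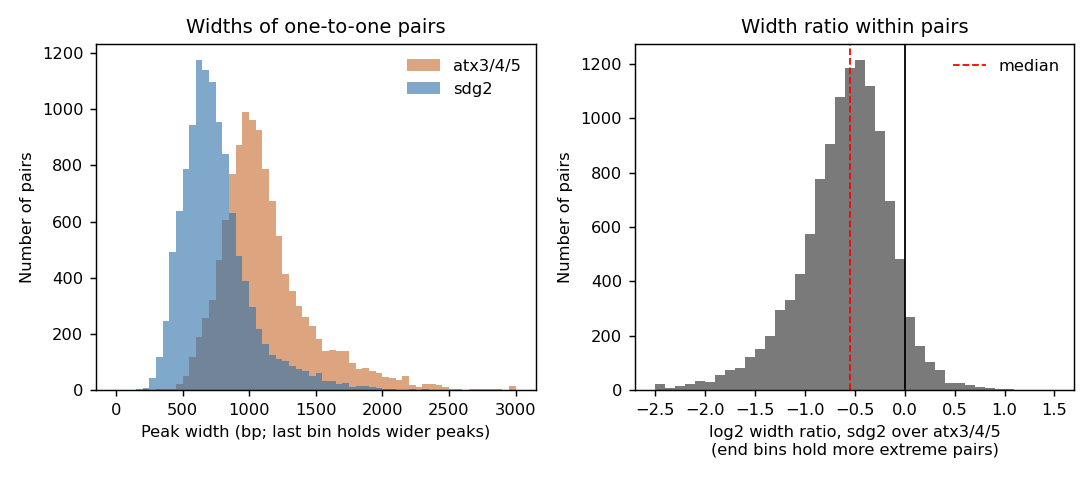
Left, widths in bp (x axis) of the 11567 one-to-one pairs of H3K4me3 peaks, as number of pairs per 50 bp (y axis), for atx3/4/5 and sdg2. Right, log2 width ratio of sdg2 over atx3/4/5 within a pair, with 0 as a solid line and the median of -0.55 as a dashed line; 93.9% of pairs lie below 0.

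The narrowing was uneven along the gene. For 7537 pairs that touched a single locus, one edge of the atx3/4/5 peak lay inside the locus and the other outside it. The inside edge of the sdg2 peak lay a median of 241 bp (quartiles 121 and 388 bp) inward of the atx3/4/5 edge, and the outside edge 89 bp (44 and 136 bp). The inside edge had moved more in 6101 of these pairs (80.9%). Strand was not used here, so which outside edge faces the start of transcription is not stated.

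Width ratios also followed the RNA level. Pairs over genes with at least 1 FPKM in wild type in the authors' deposited table were split into quintiles of that value. The median log2 width ratio was -0.46 in the lowest quintile and then -0.53, -0.55, -0.60 and -0.73 in the highest. Over the same quintiles the median atx3/4/5 peak widened from 986 to 1120 bp, while that of sdg2 went from 703 to 678 bp. The part of peak width in the trend with RNA was not tested.

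The pairs named next are extremes. They had the 5 lowest width ratios where both peaks scored at or above the median of their list. The median log2 width ratio of all such pairs was -0.53. GAMMA-VPE, a vacuolar processing protease gene, lay with AT4G32930 under a peak of 2399 bp in atx3/4/5 and 576 bp in sdg2, 4.17-fold narrower, with 1534 bp in wild type. At the alpha-tubulin gene TUA2 and its neighbours the peak measured 2164 bp in atx3/4/5, 520 bp in sdg2 and 2189 bp in wild type. NBR1, which encodes a cargo receptor of autophagy, had 2331 bp in atx3/4/5, 584 bp in sdg2 and 1560 bp in wild type. OPT3, a transporter gene with a role in iron movement in the phloem, had 2902, 795 and 2778 bp in the same order. At TUA2 and OPT3 the atx3/4/5 width was close to wild type, whereas at GAMMA-VPE and NBR1 the atx3/4/5 peak was also wider than in wild type. DTX35, a gene of the MATE efflux carriers, and its neighbour AT4G25635 completed the 5 pairs with 2055 bp in atx3/4/5 and 555 bp in sdg2.

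The other extreme was smaller. At AT5G05520 the sdg2 peak of 1975 bp was 1.80-fold wider than the atx3/4/5 peak of 1098 bp, and the wild-type peak had 1049 bp. At AT4G03405 and AT4G03410 the widths were 1093 bp in atx3/4/5, 1847 bp in sdg2 and 1215 bp in wild type. MSH3, a mismatch repair gene, and AT4G25550 had 1449 bp in sdg2, 1030 bp in atx3/4/5 and 1621 bp in wild type. Wild type stood nearer to atx3/4/5 in the first 2 cases and nearer to sdg2 at MSH3. AT3G29776 had 1274 bp in atx3/4/5, 1732 bp in sdg2 and 1722 bp in wild type. The peak over OFP11, SECE1 and OASA1, the last a cysteine synthase gene, had 1038, 1371 and 1582 bp in the same order.

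Some atx3/4/5 peaks were broken up in sdg2. In total 578 atx3/4/5 peaks (4.24%) overlapped more than 1 sdg2 peak, 567 of them 2 and 11 of them 3, while 9 sdg2 peaks overlapped 2 atx3/4/5 peaks. These atx3/4/5 peaks were wide, with a median of 1778 bp, and the 589 gaps between the sdg2 pieces had a median of 75 bp (quartiles 33 and 148 bp). Of the 3 highest-scoring peaks in 3 pieces, 2 had the same score of 3100. One covered EXO70B2, an exocyst subunit gene, SLP1 and AT1G07020, with 2778 bp in atx3/4/5 and pieces of 334, 713 and 806 bp in sdg2. The other, 3363 bp wide, spanned AT1G06640, AT1G06645, AT1G06650 and JASON and lay over pieces of 682, 504 and 765 bp. Next came a peak of 2152 bp over PUR ALPHA-1, a gene of a purine-rich element binding protein, and AT2G32090, with pieces of 318, 711 and 768 bp. In the opposite direction, 1 sdg2 peak of 2917 bp over AT4G26540 and AT4G26542 covered 2 atx3/4/5 peaks of 1274 and 1301 bp. The next by score lay over AT1G19970 and over AT1G80555 and IMD2, a gene of leucine synthesis.

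At the level of genes, 33278 nuclear genes were classed by their peaks. A peak in both mutants was found at 14208 genes (42.7%), in atx3/4/5 only at 1569 (4.71%), in sdg2 only at 2270 (6.82%) and in neither at 15231 (45.8%). These counts had the same dependence on list length as the peaks, with 2380 genes in atx3/4/5 only and 1574 in sdg2 only when the lists were of equal length. With both lists at a score of at least 100 the order was also exchanged, with 2143 and 1862 genes. That cut kept 12914 atx3/4/5 peaks and 13539 sdg2 peaks.

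The genes of the 2 classes differed in the marks they carried in wild type. Of the genes marked in atx3/4/5 only, 78.5% (interval 76.4 to 80.5%) had a wild-type H3K4me3 peak and 63.2% (60.7 to 65.6%) a wild-type H3K4me2 peak. Of the genes marked in sdg2 only, 46.5% (44.5 to 48.6%) had a wild-type H3K4me3 peak and 89.0% (87.7 to 90.3%) a wild-type H3K4me2 peak. Of the genes marked in both mutants, 99.0% had a wild-type H3K4me3 peak and 86.7% a wild-type H3K4me2 peak, the latter near the value of genes in sdg2 only. An H3K4me2 peak of atx3/4/5 was present at 57.0% of genes in atx3/4/5 only and 49.6% of genes in sdg2 only, beside 78.9% of genes marked in both. Among genes with H3K4me2 in wild type, 80.5% of the class marked in atx3/4/5 only also had it in atx3/4/5, and 54.9% of the class marked in sdg2 only did, beside 87.8% of genes marked in both. Locus lengths were close, with medians of 2095 and 1961 bp.

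Their RNA levels in wild type differed as well. The median FPKM in the authors' deposited table was 11.2 for genes marked in both, 6.65 for genes in atx3/4/5 only, 1.33 for genes in sdg2 only and 0 for genes in neither. Across deciles of genes with at least 1 FPKM in the authors' deposited table, the number marked in sdg2 only was 282 of 1719 genes (16.4%) in the lowest and 24 of 1719 in the highest. The share marked in atx3/4/5 only was 5.64% in the lowest decile and 9.95% in the highest, and between 5.41 and 7.39% in the others.

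**Figure D3:**
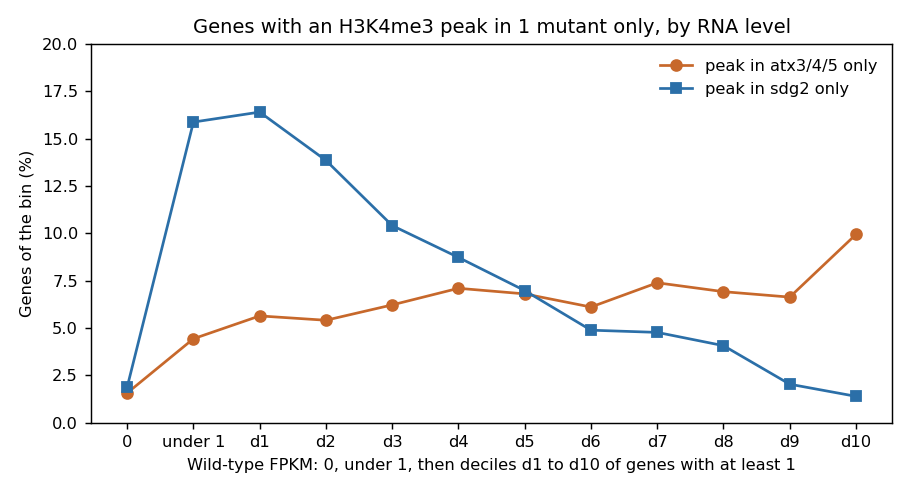
Share of genes with an H3K4me3 peak in 1 mutant only (y axis, % of the genes of the bin), by wild-type RNA level (x axis): listed at 0, under 1 FPKM, and deciles of the genes with at least 1 FPKM in the authors' deposited table. Over the deciles the share in sdg2 only falls from 16.4% to 24 of 1719 genes, and the share in atx3/4/5 only ends at 9.95%.

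Gene lists were read against the shares over all genes, 4.71% in atx3/4/5 only and 6.82% in sdg2 only, as a description. The members of a list were counted by peaks over their loci, and widths are summed over the peaks of a locus. Scores are the highest over it.

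Photosynthesis genes carried wide peaks in wild type and atx3/4/5 and narrow ones or none in sdg2. Of 31 members 12 were marked in atx3/4/5 only and none in sdg2 only. They comprised the light-harvesting genes LHCA2, LHCB1.1, LHCB1.2 and LHCB2.1, the photosystem I subunits PSAH2, PSAK, PSAN and PSAO, the photosystem II subunit PSBW, and the Rubisco small subunits RBCS1A, RBCS2B and RBCS3B. All 12 had a wild-type peak. Their atx3/4/5 peaks measured 1236 to 2457 bp and their wild-type peaks 1343 to 3409 bp. RBCS1A had 1693 bp in atx3/4/5 and 1762 bp in wild type, both with a score of 3100, and no peak in sdg2. PSAH2 had 2457 bp in atx3/4/5 and 3105 bp in wild type. Copies in the LHCB1 and RBCS families are nearly identical, so reads over them may not be placed with certainty.

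At the other 19 photosynthesis genes the locus carried a peak in sdg2 too, over a smaller width. The median of the log2 width ratio was -1.50, beside -0.57 over all genes marked in both, and 14 of the 19 were below -1, beside 21.9% of all such genes. RCA, which encodes Rubisco activase, had 2831 bp in atx3/4/5, 462 bp in sdg2 and 3002 bp in wild type. LHCA3 had 2429, 453 and 2447 bp in the same order, and LHCB5 2160, 513 and 2426 bp. In each of these the atx3/4/5 width was near that of wild type. The list lies at the top of the RNA scale, from 1275 to 16497 FPKM in wild type in the authors' deposited table. The part of the RNA level in the widths was not tested. By the authors' deposited table RCA stood at 2397 FPKM, with a log2 width ratio of -2.62, and LHCA4 at 11048 FPKM, with -0.65. For LHCA4 that ratio sets 2 summed sdg2 peaks (1451 bp) against 1 atx3/4/5 peak (2281 bp). They were counted over a joint locus, so part of this width may belong to a neighbouring gene. LHCB3, LHCB6 and PSBR were also counted over a joint locus, so their sdg2 peaks may likewise belong to a neighbour.

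Reference genes, chosen for steady RNA, went the same way to a lesser degree. ACT2 and EF1A of 14 were marked in atx3/4/5 only, with 1364 and 1365 bp in atx3/4/5 and 1362 and 1371 bp in wild type. EF1A has near-identical copies. UBQ10, a polyubiquitin gene, had 2793 bp in atx3/4/5, 648 bp in sdg2 and 2620 bp in wild type. TIP41, which is expressed at a moderate level, had 766, 745 and 967 bp. The median log2 width ratio of the 12 genes marked in both was -0.87.

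**Figure D4:**
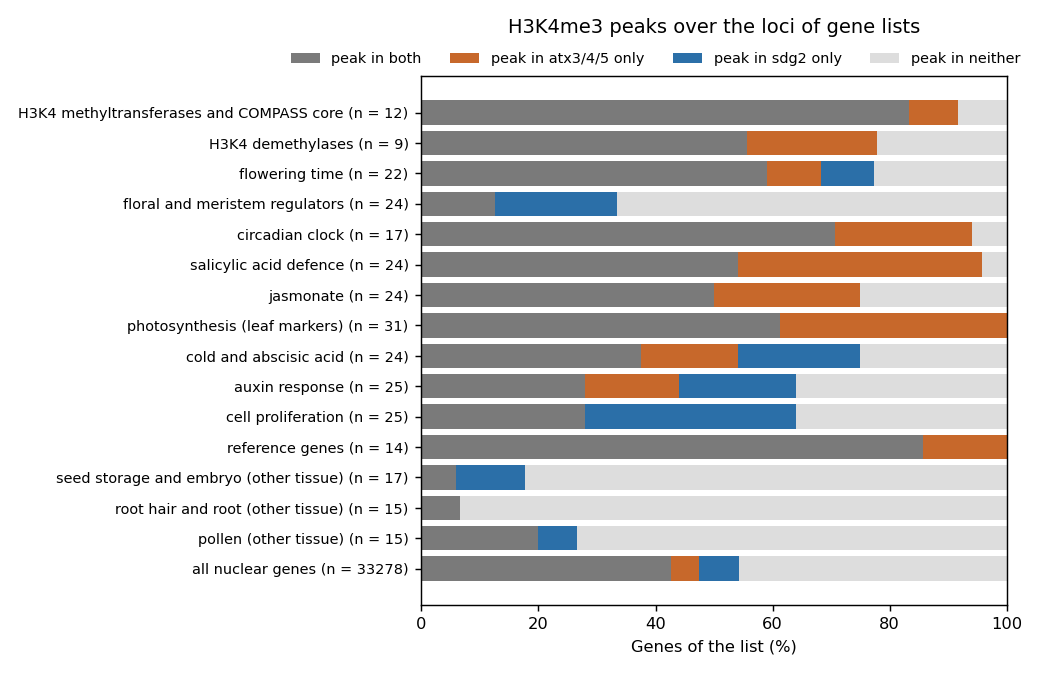
Genes of each list by H3K4me3 peaks over their locus, as % of the list (x axis), in both mutants, in atx3/4/5 only, in sdg2 only or in neither; the lowest bar gives all 33278 nuclear genes. Photosynthesis and salicylic acid defence hold 38.7 and 41.7% in atx3/4/5 only, and cell proliferation holds 36.0% in sdg2 only.

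Salicylic acid defence genes had the largest share in atx3/4/5 only, 10 of 24, and none in sdg2 only. The 10 fall into genes with and without the mark in wild type. NPR3 and NPR4, salicylic acid receptors, and the transcription factor WRKY70 had wild-type peaks of 1638, 1490 and 1629 bp and atx3/4/5 peaks of 2092, 1600 and 1911 bp. The other 7 had no wild-type peak. They were PR1 and PR2, which encode pathogenesis-related proteins, PAD3, of camalexin synthesis, the transcription factors WRKY38 and SARD1, PBS3, which acts in salicylic acid synthesis, and NIMIN1, an NPR1-interacting protein. PR1 had 835 bp with a score of 525 in atx3/4/5 and PR2 1293 bp with a score of 460. The scores of SARD1, NIMIN1, PBS3 and PAD3 were lower, from 198 to 303.

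RNA of 6 of these 7 genes was called higher in atx3/4/5, beside 4.93% of all tested genes and 41.2% of the tested genes with a peak in atx3/4/5 only and none in wild type. PR1 rose from 19.4 to 1634 FPKM and PR2 from 21.5 to 764 FPKM in the authors' deposited table, each with a deposited q of 0.0018. In the authors' deposited table WRKY38 went from 0.235 to 7.25 FPKM with a deposited q of 0.068, which missed the threshold of 0.05. Of the 13 defence genes marked in both mutants, the width differed most at WRKY53, with 1801 bp in atx3/4/5, 435 bp in sdg2 and 1275 bp in wild type. WRKY53 shares its locus with another gene, and its sdg2 score was 84.0. At NPR1, the master regulator of the salicylic acid response, which shares its locus with another gene, and at ICS1, of salicylic acid synthesis, the summed width was larger in sdg2, where 2 peaks stood against 1 in atx3/4/5. NPR1 had 1195 bp in atx3/4/5 and 1548 bp over the 2 peaks in sdg2, and ICS1 had 702 and 908 bp.

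Of 24 jasmonate genes 6 were marked in atx3/4/5 only and none in sdg2 only. The biosynthesis genes AOC1 and LOX2 had 1320 and 2804 bp in atx3/4/5 and 817 and 2036 bp in wild type. The repressor genes JAZ3, JAZ6 and JAZ9 had 712, 1815 and 2135 bp in atx3/4/5 and 1006, 1809 and 2202 bp in wild type. JAZ5 had 1642 bp over 2 peaks in atx3/4/5 and no wild-type peak. The transcription factors MYC2, MYC3 and MYC4 were marked in both mutants, with 1587, 1507 and 1255 bp in sdg2. Of the 6 genes 3 were called lower in atx3/4/5 in the authors' deposited table, JAZ9 for example from 485 to 172 FPKM, and all 3 carried a peak there. Of all tested genes 5.36% were called lower, and 68 of 1033 among genes with a peak in atx3/4/5 and wild type but not in sdg2.

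Clock genes contributed 4 of 17 to the class in atx3/4/5 only and none to the other. CCA1, a morning repressor of the clock, had 1380 bp in atx3/4/5 and 1641 bp in wild type. The pseudo-response regulators PRR9 and PRR7 had 1514 and 1214 bp in atx3/4/5 and 1560 and 1250 bp in wild type. GI, an evening gene that also acts in flowering, had 1066 and 1074 bp. In all 4 the atx3/4/5 peak kept most of its wild-type width. Of the 12 clock genes marked in both, 7 had a log2 width ratio below -1, with PRR5 at 3733 bp over 2 peaks in atx3/4/5, 487 bp over 1 in sdg2 and 3520 bp over 2 in wild type, and LHY at 1625, 394 and 1972 bp. At what hour leaves were harvested is not given here.

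Cell proliferation genes showed the opposite split, with 9 of 25 in sdg2 only and none in atx3/4/5 only. They were the cyclin genes CYCA2;3, CYCB1;2 and CYCD3;1, the cyclin-dependent kinase genes CDKB1;1, CDKB2;1 and CDKB2;2, the replication genes PCNA1 and MCM5, and ANT, a transcription factor of organ growth. Only PCNA1 and CYCA2;3 of these had a wild-type H3K4me3 peak. PCNA1 had 645 bp with a score of 342 in sdg2 and 1607 bp in wild type. The other 8 had sdg2 scores between 71.1 and 140, in the 2 lowest quintiles of that list, and 5 of the 9 scored at least 100. All 9 had an H3K4me2 peak in wild type and 6 in atx3/4/5. None of the 24 members tested was called in RNA in the authors' deposited table, where 4.93% of all tested genes were higher and 5.36% lower, so that 0 of 24 is near the background.

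Regulators of flowers and meristems went the same way on low scores. Of 24 members 5 were marked in sdg2 only and none in atx3/4/5 only. LFY, a master regulator of flower identity, had 843 bp over 2 peaks with a highest score of 116, and KNAT6, a homeobox gene of the meristem, had 452 bp with a score of 117. SEP4, FUL and CUC3 scored 65.3, 85.1 and 55.9. SEP4 alone of the 5 had a wild-type H3K4me3 peak, and all 5 had wild-type H3K4me2.

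The flowering time list was split evenly, with 13 of 22 marked in both mutants and 2 in each class. GI and AGL24 were marked in atx3/4/5 only, AGL24 with 687 bp there and 876 bp in wild type. FLC, the central repressor of flowering, had an sdg2 peak of 330 bp with a score of 121 and none in atx3/4/5 or wild type. FD, a partner of the flowering signal FT, had 776 bp with a score of 138 in sdg2 and none in the other H3K4me3 lists. FT itself had no peak in either mutant.

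Cold and abscisic acid genes and auxin genes fell on both sides. In the first list 4 of 24 were in atx3/4/5 only (COR15B, KIN2, GOLS2 and ZAT12) and 5 in sdg2 only (CBF1, CBF3, RD29A, NCED5 and GOLS3). Tandem copies such as KIN1 and KIN2 or the CBF genes may share reads. NCED5, of abscisic acid synthesis, stood out in score, with 1581 bp and 921 in sdg2 and 1600 bp in wild type. ZAT12, a stress zinc finger gene, had 989 bp with a score of 984 in atx3/4/5 and 850 bp in wild type. Of 25 auxin genes 4 were in atx3/4/5 only (IAA4, IAA14, IAA16 and ARF19) and 5 in sdg2 only, among them IAA17, IAA19, GH3.5 and SAUR9. GH3.5, which encodes an amino acid conjugating enzyme of the GH3 family, had 710 bp with a score of 407 in sdg2 and 718 bp in wild type. IAA4, an Aux/IAA repressor, had 1300 bp with a score of 1188 in atx3/4/5 and 1393 bp in wild type.

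Genes of the H3K4 machinery were mostly marked in both mutants. Of 12 methyltransferase and complex genes 10 were, and SDG25, another methyltransferase gene, was marked in atx3/4/5 only, with 839 bp there and 863 bp in wild type. Its peak touched the locus by less than 200 bp. Of 9 demethylase genes JMJ16 and LDL3 were in atx3/4/5 only, with 911 and 863 bp there and 978 and 968 bp in wild type. Their atx3/4/5 scores were 110 and 802. When peak and locus had to overlap by at least 200 bp, 1 demethylase gene was left in this class. The 10 methyltransferase and complex genes marked in both had a median log2 width ratio of -0.40. Of the lists of other tissues, the root list had no gene in either class. OLEO1 and OLEO4 of the seed list and MYB101 of the pollen list were in sdg2 only.

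RNA in atx3/4/5 was compared between the classes. A test was given for 18909 nuclear genes in the authors' deposited table, and at a deposited q under 0.05 the higher calls were 4.93% and the lower calls 5.36% of them. No label states whether both RNA libraries of a genotype are from different plants, and the deposited q may therefore reflect technical spread. In the authors' deposited table genes marked in atx3/4/5 only were called higher in 195 of 1329 cases (14.7%) and lower in 74 (5.57%). Genes marked in sdg2 only were called higher in 29 of 1515 cases (1.91%) and lower in 246 (16.2%) in the authors' deposited table. The median log2 ratio of FPKM, atx3/4/5 over wild type, was 0.17 in the first class and -0.66 in the second, beside -0.039 over all genes tested.

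The wild-type mark divided the first class. Among genes marked in atx3/4/5 only that had no wild-type H3K4me3 peak, 122 of 296 tested (41.2%) were called higher in the authors' deposited table, and the median log2 ratio was 1.76. Among those with a wild-type peak, which sdg2 therefore lacked and atx3/4/5 kept, 73 were called higher and 68 lower of 1033, with a median of -0.047. In the class marked in sdg2 only, the split was smaller. With a wild-type peak 164 of 847 (19.4%) were called lower in the authors' deposited table, with a median log2 ratio of -0.81, and without one 82 of 668 (12.3%), with a median of -0.50. Genes marked in both mutants or in neither showed like values when split by the wild-type mark. Of genes marked in both without a wild-type peak, 29 of 113 (25.7%) were called higher in the authors' deposited table, with a median of 0.92. Of genes marked in neither with a wild-type peak, 56 of 241 (23.2%) were called lower in the authors' deposited table, with a median of -0.79. The RNA values are thus not particular to genes marked in 1 mutant only.

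**Figure D5:**
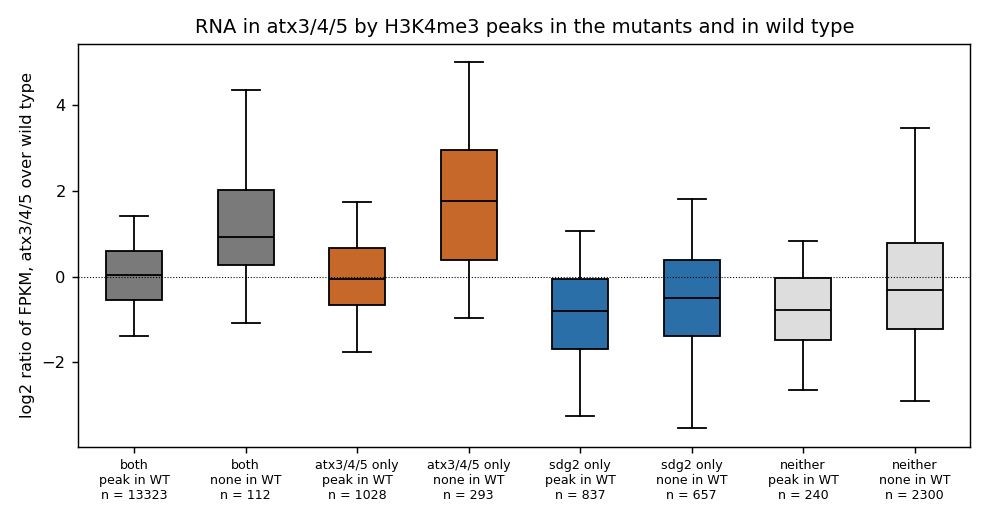
log2 ratio of FPKM in the authors' deposited table, atx3/4/5 over wild type (y axis), for genes by H3K4me3 peaks in the mutants and in wild type (x axis); boxes give quartiles and median, whiskers the 5th and 95th percentiles. Genes marked in atx3/4/5 only without a wild-type peak have a median of 1.76, and genes marked in sdg2 only with a wild-type peak one of -0.81.

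Single genes had large ratios in both classes. In atx3/4/5 only, PR1 was higher by 84.3-fold in the authors' deposited table. GSTU9, a glutathione S-transferase gene, rose from 0.408 to 20.5 FPKM and NIT2, a nitrilase gene, from 2.64 to 130 FPKM in the authors' deposited table. AT3G28510 rose from 0.224 to 13.3 FPKM in the authors' deposited table. None of these 4 had a wild-type peak, and their atx3/4/5 scores were between 112 and 525. AT3G01345 went against them, with 221 FPKM in wild type and 2.42 in atx3/4/5 in the authors' deposited table, while its peak measured 1018 bp in wild type and 1048 bp in atx3/4/5.

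In sdg2 only, all 5 genes with the largest ratios were lower. MAP1B, a methionine aminopeptidase gene, fell from 17.2 to 0.325 FPKM in the authors' deposited table and had 637 bp in wild type and 330 bp in sdg2. SSL2, a strictosidine synthase-like gene, fell from 19.1 to 0.696 FPKM in the authors' deposited table, with 651 bp in wild type and 366 bp in sdg2. BETA-VPE, a vacuolar processing enzyme gene, SADHU5-1, of a family of retroposons, and AT1G58280 had no wild-type H3K4me3 peak, and their sdg2 scores were 134, 52.7 and 59.1. Genes at 0 FPKM in 1 genotype were not ranked, which left out 2 called genes in the first class and 14 in the second.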

How the data were processed

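ChIP-seq peaks of 1 library per genotype and antibody and a table of RNA-seq values were taken as deposited. The submitters' processing notes name Bowtie 1.0.1, MACS 1.4.2, Cufflinks 2.2.1 and TopHat2 2.0.10 and the TAIR10 build. Each peak list holds, per the labels, 1 ChIP library set against an input, and the inputs were not used here. The score in the deposited lists is the authors' peak caller's value, with a lowest value of 50. The authors' deposited table holds FPKM, p-values and q-values for each gene, with 2 libraries per genotype combined. Its log2 column was not used, and 0 columns of per-sample values were left unused.

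Overlaps, widths and classes were computed with Python 3.11.15, numpy 2.4.6, pandas 2.3.3 and scipy 1.17.1 and checked on simulated peaks. One-to-one pairs are peaks that overlap exactly 1 peak of the other list. Loci are those of the authors' deposited table, with starts read as counted from 0. Printed positions are counted from 1. Of 33278 nuclear genes 4216 share a locus. Fold changes are log2 ratios of deposited FPKM with no pseudocount, and genes are called at a deposited q under 0.05. At an unadjusted p under 0.05, 4836 genes passed. Names come from RefSeq (TAIR10.1), which matched 32810 of the 33278 nuclear identifiers.

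Members and gene lists were chosen with earlier results of these data known. Named were the 10 highest-scoring unshared peaks per list over a locus, the 5 most extreme width ratios in each direction where both scores reached the list median, the 3 peaks over the most pieces, all list members marked in 1 mutant only (1 of the auxin list is not reported here), and the 5 largest called RNA ratios per class. Other genes were named after their values were seen. No replicate test was possible. The alternatives were a score of at least 100, lists of equal length, stricter overlaps, and other RNA settings.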

Additional observations from a re-analysis of the deposited data

How the results depend on the processing

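No paired analysis was possible because each genotype has 1 ChIP library and the RNA libraries are combined. The median width ratio and the median RNA ratios kept their sign under every alternative. Shares and counts cannot be negative, so a change of sign was not possible for them. A share or median was taken as moved when it left its interval, and a count when it changed by over 1.5 times. Leaving out the gene lists, 19 values moved and 21 did not. These include the cut at a score of at least 500 described below. The share of atx3/4/5 peaks without an sdg2 peak (10.7%) became 15.0% with both lists at a score of at least 100, 16.5% with lists of equal length, and 9.49% with atx3/4/5 peaks of at least 100 against all sdg2 peaks. The share of sdg2 peaks without an atx3/4/5 peak (18.2%) became 16.1, 13.6 and 13.3% in the same order. With equal lists the order of the mutants was thus exchanged, and for the gene counts also with both lists at a score of at least 100 (2143 and 1862). A cut at a score of at least 500, against all peaks of the other list, was chosen after seeing the data. It kept 9126 atx3/4/5 and 6516 sdg2 peaks, with shares of 4.87 and 4.19%. In the 2 classes 665 and 262 genes were left, and the part of the score scale in these counts was not tested. Equal lists gave 2380 genes in atx3/4/5 only.

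The median log2 width ratio of -0.55 became -0.53 with equal lists, -0.48 with a reciprocal overlap of at least 50% and -0.53 for pairs at or above both median scores. The 9 sdg2 peaks over 2 atx3/4/5 peaks became 4 at a score of at least 100 and 3 with an overlap of 50% of the shorter peak. The median RNA ratio of genes in atx3/4/5 only (0.17) was 0.061 with at least 1 FPKM in both genotypes. That of genes in sdg2 only (-0.66) was -0.46 with a pseudocount of 1 FPKM and -0.47 centred by locus length. Of 180 alternative list counts, also chosen after seeing the data, 148 stayed within 1.5 times. These 148 include classes with 0 members that stayed at 0, so they overstate how steady the classes with members were. At a score of at least 500 the 10 defence genes became 5 and the 9 proliferation genes 0, and the latter were 5 with equal lists or at a score of at least 100 against all peaks. The cause of these moves was not tested. Read depth is unknown.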

Other observations

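Gene families were sorted by the classes after their values were seen, so the counts below are a description. The 29 families with at least 25 members by symbol and at least 10 marked members were counted. Receptor-like proteins (RLP), cell surface receptors of which several act in immunity, had 18 of 54 members (33.3%) marked in atx3/4/5 only and 5 in sdg2 only. Cysteine-rich receptor-like kinases (CRK) had 11 of 40 (27.5%) in atx3/4/5 only and 0 in sdg2 only. WRKY transcription factors had 13 of 67 against 4, and NAC transcription factors 12 of 79 against 1. Over all genes the shares were 4.71% and 6.82%.

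Other families had more members in sdg2 only. Arabinogalactan proteins (AGP) of the cell surface had 8 of 30 (26.7%) in sdg2 only and 3 in atx3/4/5 only. TBL genes, which act in the acetylation of cell wall polysaccharides, had 6 of 41 in sdg2 only and 0 in atx3/4/5 only. Embryo-defective (EMB) genes, named for their requirement in the embryo, were marked in both mutants in 107 of 112 cases (95.5%). Over all nuclear genes this share was 42.7%. EMB genes had a median of 7.01 FPKM in wild type in the authors' deposited table. Of all genes with 5.03 to 7.41 FPKM there, 73.1% were marked in both.

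By position, 110 windows of 1 Mb with at least 20 peaks were compared for each list. The share of atx3/4/5 peaks without an sdg2 peak ranged from 0 to 21.6% with a median of 10.5%, and the share of sdg2 peaks without an atx3/4/5 peak from 6.90 to 34.1% with a median of 18.3%. The lowest atx3/4/5 share (0 of 25 peaks) and the highest sdg2 share (14 of 41) came from 1 window with few peaks. It spans 10000001 to 11000000 on chromosome 5.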
